A study of Mus musculus with 19 samples.

Results

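Neutrophils carry their antimicrobial proteins and proteases in granules made during maturation in the bone marrow. This account follows 7 mouse genes of that programme across ischemic, non-ischemic and untreated hindlimb muscle: the granule protein genes Lcn2, Camp, Ngp, Mmp8 and Mmp9 and the receptor genes Csf3r and Cxcr2. They were taken by name from the deposited table, where Cxcr2 is listed under its older name Il8rb, and they hold 12 of its 45281 probes. Of the 7 genes, 4 (Lcn2, Mmp9, Csf3r and Cxcr2) passed the detection filter and were among the 14654 genes tested, and Camp, Ngp and Mmp8 did not.

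Gene expression was measured on 19 Illumina bead arrays in gastrocnemius, a calf muscle, of CD1 mice aged 2 months. Mice in 4 of the 5 groups had been given, through the tail vein, 12 mg/kg of an LNA (locked nucleic acid) oligonucleotide with a phosphorothioate backbone, 15 nucleotides long and dissolved in 200 µl. The left femoral artery was dissected 2 days after injection, and the muscle was collected 3 days later. The groups were ischemic muscle after anti-miR-210 (4 arrays), ischemic muscle after scramble (4), non-ischemic muscle after anti-miR-210 (4), non-ischemic muscle after scramble (4) and untreated muscle (3). Neither the origin of the non-ischemic muscle (the opposite limb or other mice) nor separate animals behind the replicates is labelled. The p-values below therefore reflect spread among samples that might be technical replicates. Both oligonucleotides and their intended target, the hypoxia-induced microRNA miR-210, are shown because they define the groups. The miR-210 sequence is from RefSeq (GRCm38.p6, chr7:141221407-141221428, minus strand) with its seed, bases 2 to 8, in capitals. The anti-miR-210 oligonucleotide is complementary to miR-210 bases 2 to 16, and its capitals pair with the seed.
mmu-miR-210-3p: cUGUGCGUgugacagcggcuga
anti-miR-210: gctgtcacACGCACA
scramble: cgtctagccacctag

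Granulopoiesis fills successive classes of granule. Azurophil granules hold myeloperoxidase and serine proteases, specific granules hold lipocalin, cathelicidin and collagenase, and gelatinase granules form last. Transcription of granule genes peaks in marrow precursors and is largely shut off in the neutrophils that leave for blood and tissue. As for the receptors, G-CSF acts through Csf3r on granulocyte production and survival. Cxcr2 binds CXC chemokines such as Cxcl1 and Cxcl2 that draw neutrophils out of vessels. Lcn2 and Mmp9 are also made by other cells in inflamed tissue, so neither marks neutrophils alone.

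Levels are given as normalized log2 intensity and changes as differences on that scale with the standard error of a limma fit. A probe counts as detected on an array where its deposited detection p is under 0.05, and a gene as called where its limma p, adjusted over all 14654 genes, is under 0.05. The level of one probe cannot be set against that of another. Over arrays, mean deposited intensity ranged between 123.6 and 297.6 and the share of probes detected between 32.13% and 42.3%, and the number of arrays limits the precision. The 9 muscle markers were detected on all 19 arrays. Liver transcripts stood out on the 3 untreated arrays, where 8 liver genes averaged 8.49 to 11.88, and on scramble non-ischemic replicate 1, where they averaged 8.05 with all 8 detected. The other 3 scramble non-ischemic arrays lay at 4.32 to 4.86 and the remaining arrays at 4.54 to 5.6.

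Lcn2 encodes lipocalin 2, a specific granule protein that binds bacterial siderophores (gene at chr2:32384637-32387739, GRCm38.p6). Its level was 7.27, 7.55, 9.00 and 8.00 on anti-miR-210 ischemic arrays and 8.05, 7.92, 8.68 and 8.70 on scramble ischemic arrays. It was 4.81, 4.53, 4.93 and 4.69 on anti-miR-210 non-ischemic arrays, 4.56, 4.16, 4.46 and 4.89 on scramble non-ischemic arrays and 4.83, 4.46 and 4.82 on untreated arrays. All 8 ischemic arrays lay above all 11 others, and the ischemic groups overlapped each other. The probe was detected on all 8 ischemic arrays and on 7 of the other 11.

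Lcn2 rose 9.3-fold with ischemia after anti-miR-210 (log2 change 3.22 ± 0.28, limma adjusted p = 2.56e-08) and 14.2-fold after scramble (3.82 ± 0.28, limma adjusted p = 2.79e-09). The deposited intensity, before any correction, was 224.1, 398.8, 803.9 and 330.3 on anti-miR-210 ischemic arrays, 260.4, 277.1, 254.6 and 224.3 on scramble ischemic arrays and between 74.5 and 100.1 on the other 11. Replicate 3 after anti-miR-210 was the highest of all arrays on both scales.

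Mmp9 encodes gelatinase B, the metalloproteinase of gelatinase granules, which cleaves denatured collagen and basement membrane (chr2:164940326-164955850). On anti-miR-210 ischemic arrays its level was 7.78, 7.25, 7.28 and 8.49, and on scramble ischemic arrays 8.10, 7.05, 7.77 and 9.20. The other levels were 4.41, 4.30, 5.09 and 5.06 on anti-miR-210 non-ischemic arrays, 5.20, 4.99, 4.85 and 5.35 on scramble non-ischemic arrays and 4.79, 4.89 and 4.80 on untreated arrays. Again no ischemic array overlapped any other, and the ischemic groups overlapped each other, with replicate 4 the highest in both. With ischemia Mmp9 rose 7.91-fold after anti-miR-210 (2.98 ± 0.34, limma adjusted p = 7.1e-07) and 7.64-fold after scramble (2.93 ± 0.34, limma adjusted p = 8.36e-07). It was the member most widely detected outside ischemia, on 9 of 11 arrays.

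Csf3r encodes the receptor for G-CSF (chr4:126023441-126044975). The brightest of its 5 probes gave 6.85, 6.32, 5.97 and 7.97 on anti-miR-210 ischemic arrays, against 7.96, 7.35, 8.22 and 9.34 on scramble ischemic arrays. It gave 4.40, 4.74, 4.35 and 4.33 on anti-miR-210 non-ischemic arrays, 4.61, 4.71, 4.23 and 4.55 on scramble non-ischemic arrays and 4.26, 4.74 and 4.47 on untreated arrays. Ischemic arrays lay above all others. Within ischemic muscle only anti-miR-210 replicate 4 reached into the range of the scramble arrays. The probe was detected on all 8 ischemic arrays and on 4 of the other 11. Csf3r rose 5-fold with ischemia after anti-miR-210 (2.32 ± 0.37, limma adjusted p = 3.06e-05) and 12.9-fold after scramble (3.69 ± 0.37, limma adjusted p = 1.21e-07). These folds rest on non-ischemic levels near the background.

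A second Csf3r probe was detected on all 8 ischemic arrays and on 0 of the other 11. It read 5.63, 6.09, 5.69 and 6.73 after anti-miR-210 and 6.23, 6.27, 6.94 and 8.17 after scramble in ischemic muscle. Fitted with every kept probe, it was at least 2.74-fold higher with ischemia after anti-miR-210 (1.73 ± 0.31, limma adjusted p = 0.000129) and at least 5.06-fold higher after scramble (2.55 ± 0.31, limma adjusted p = 1.59e-06), where the bound comes from the detection floor of the non-ischemic arrays. It passed the filter through the ischemic arrays alone, so these values describe the probe and are no independent support for the change of Csf3r. The 3 remaining Csf3r probes were detected on 1, 0 and 0 of 19 arrays and stayed between 66.7 and 88 in deposited intensity, so the probes of this gene disagree. The part of the transcript each probe reads was not used here.

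**Figure D1:**
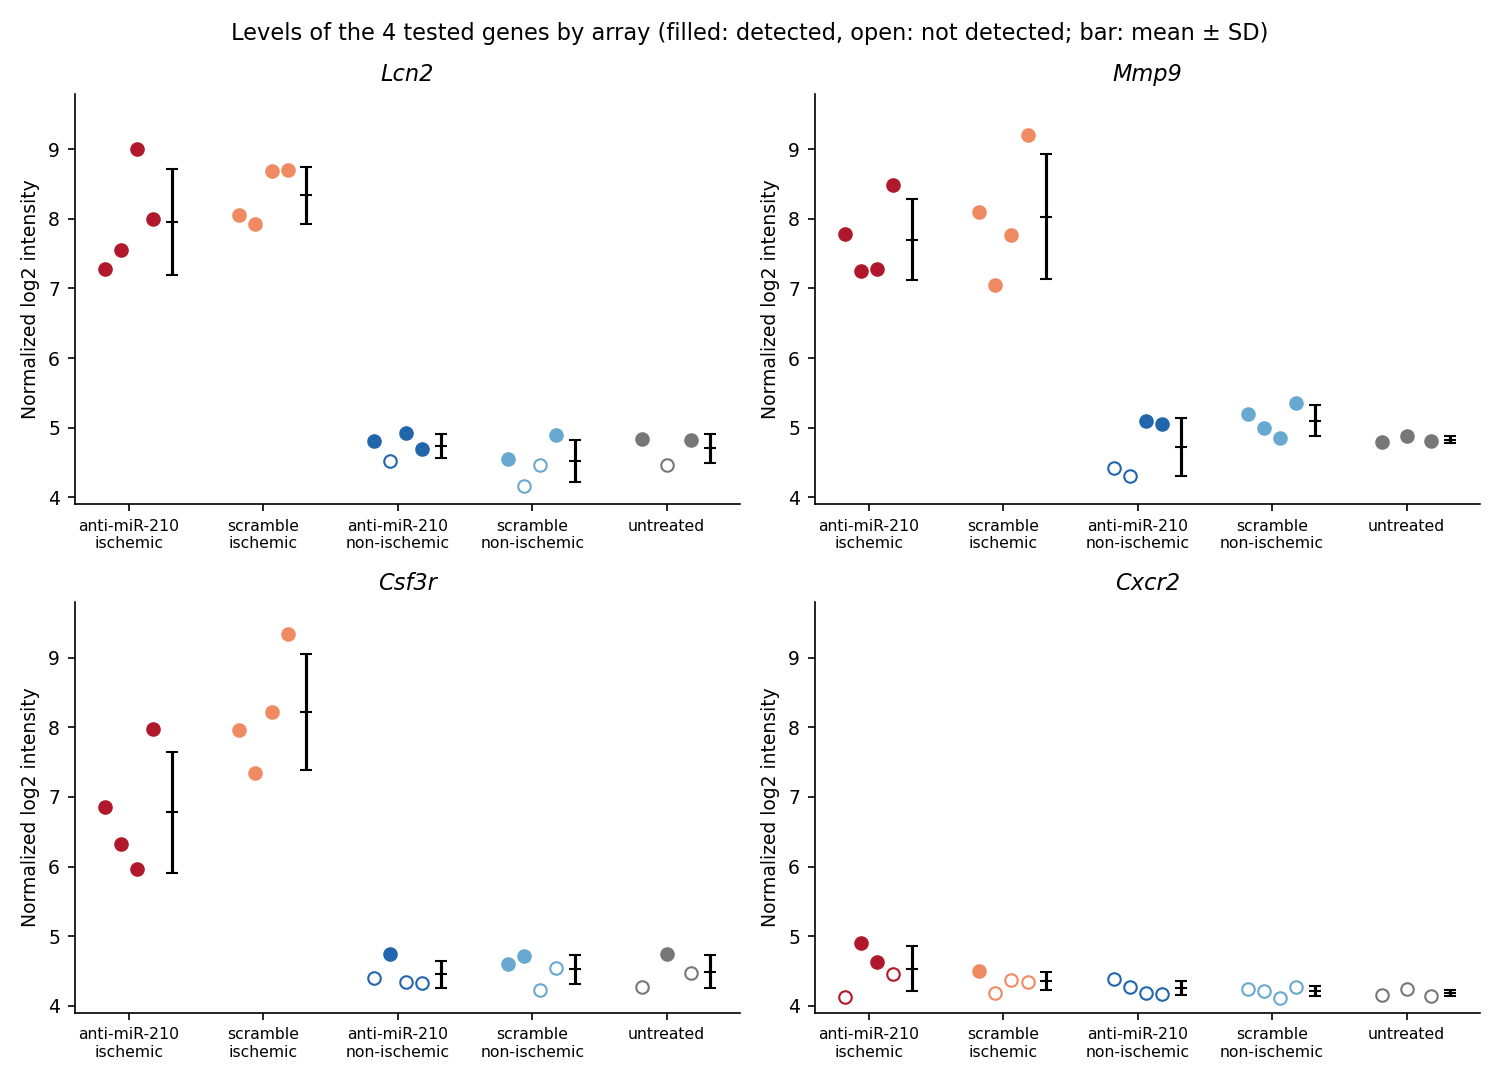
Normalized log2 intensity of Lcn2, Mmp9, Csf3r and Cxcr2 on each array (points, 1 per array, filled where detected) with the mean ± SD of each group beside them; groups run from anti-miR-210 ischemic to untreated. For Lcn2, Mmp9 and Csf3r all 8 ischemic arrays lie above the 11 others, and for Cxcr2 every array lies between 4.11 and 4.90.

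Cxcr2 encodes the chemokine receptor that directs neutrophil recruitment (chr1:74153994-74161246). Its brighter probe gave 4.13, 4.90, 4.63 and 4.46 on anti-miR-210 ischemic arrays and 4.51, 4.19, 4.38 and 4.34 on scramble ischemic arrays, and between 4.11 and 4.39 on the other 11. It was detected on 3 arrays, all ischemic (replicates 2 and 3 after anti-miR-210 and replicate 1 after scramble), and passed the filter through those arrays alone. The change with ischemia was 0.28 ± 0.14 after anti-miR-210 (95% interval -0.01 to 0.57, limma adjusted p = 0.102) and 0.14 ± 0.14 after scramble (-0.15 to 0.43, limma adjusted p = 0.419). Without anti-miR-210 ischemic replicate 1, the lowest of its group, the first of these passed the threshold (0.41, limma adjusted p = 0.0115). The other Cxcr2 probe was detected on 2 arrays, 1 of them non-ischemic.

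The 3 granule genes that were not tested remained at the level of the background beads. Ngp encodes a cystatin-like specific granule protein (chr9:110419808-110423012) and its probe was detected on 0 of 19 arrays, with a deposited intensity of 76.4 to 89 on anti-miR-210 ischemic arrays, 67.9 to 77.2 on scramble ischemic arrays and 74.7 to 84.3 on the others. Mmp8, the neutrophil collagenase (chr9:7558429-7568486), was also detected on 0 of 19 arrays, at 74.9 to 84.7 after anti-miR-210 and 73.8 to 78.5 after scramble in ischemic muscle. Camp encodes cathelicidin, an antimicrobial peptide (chr9:109847377-109849456), and was detected on 2 arrays, anti-miR-210 ischemic replicate 3 (94.3) and anti-miR-210 non-ischemic replicate 2 (86.6). A detection p under 0.05 lets about 5% of negative control beads pass. Fitted with no filter, limma called none of the 3: the change with ischemia was -0.09 ± 0.06 and -0.08 ± 0.06 for Ngp, -0.14 ± 0.08 and 0.1 ± 0.08 for Mmp8 and -0.08 ± 0.11 and 0.06 ± 0.11 for Camp, after anti-miR-210 and after scramble in turn. With 1 probe per gene, no level above background could be shown for them, which is not evidence that their transcripts were absent.

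**Figure D2:**
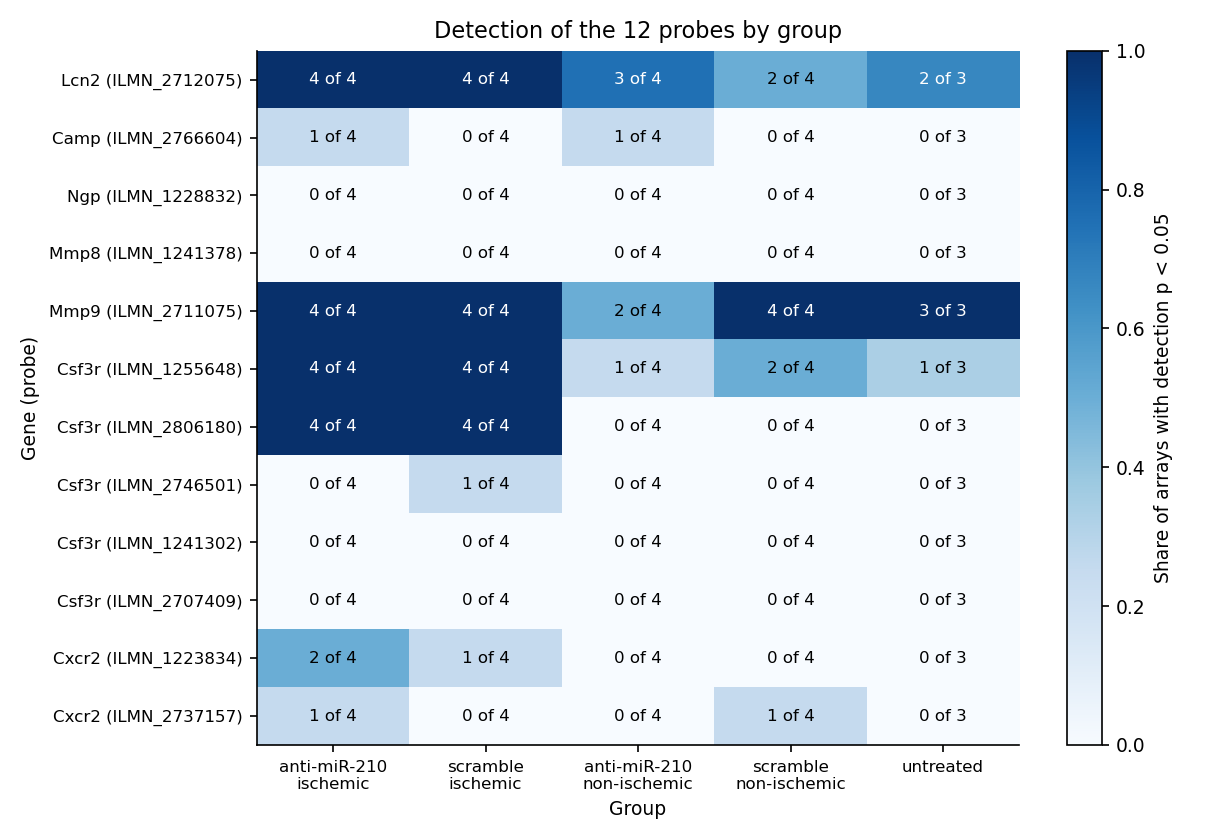
Number of arrays on which each of the 12 probes was detected (rows, gene and probe) in each group (columns); darker cells mark a larger share of arrays. The Lcn2, Mmp9 and upper 2 Csf3r probes were detected on every ischemic array, and the Ngp and Mmp8 probes on 0 of 19.

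Promoters of Lcn2, Csf3r and Ngp are shown because Lcn2 and Csf3r both rose with ischemia while Ngp, a granule gene of the same lineage, was not detected. The windows hold 250 bases before and 50 after a RefSeq transcript start (GRCm38.p6), and 6 of the 7 members had one; Mmp9 did not. Capitals mark matches, on either strand, to the C/EBP-type motif TTNNGNAA, the NF-kB-type motif (GGG and CC with 5 bases between), the PU.1-type motif GAGGAA or the TATA-type motif TATAAA. Lcn2 lies at chr2:32387690-32387989 on the minus strand, Csf3r at chr4:126024409-126024708 on the plus strand, within the annotated span of its gene, and Ngp at chr9:110419558-110419857 on the plus strand.
Lcn2: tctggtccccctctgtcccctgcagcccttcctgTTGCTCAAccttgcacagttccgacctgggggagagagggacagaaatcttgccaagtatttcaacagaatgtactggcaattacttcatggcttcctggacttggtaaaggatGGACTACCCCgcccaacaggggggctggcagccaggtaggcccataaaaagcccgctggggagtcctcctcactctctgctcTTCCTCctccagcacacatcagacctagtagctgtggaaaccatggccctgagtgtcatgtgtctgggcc
Csf3r: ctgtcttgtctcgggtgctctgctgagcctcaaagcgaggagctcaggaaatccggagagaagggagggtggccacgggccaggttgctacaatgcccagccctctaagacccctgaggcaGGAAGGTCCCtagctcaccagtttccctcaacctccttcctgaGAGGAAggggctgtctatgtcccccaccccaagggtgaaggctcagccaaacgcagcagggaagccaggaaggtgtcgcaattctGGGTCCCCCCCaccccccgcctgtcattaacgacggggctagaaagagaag
Ngp: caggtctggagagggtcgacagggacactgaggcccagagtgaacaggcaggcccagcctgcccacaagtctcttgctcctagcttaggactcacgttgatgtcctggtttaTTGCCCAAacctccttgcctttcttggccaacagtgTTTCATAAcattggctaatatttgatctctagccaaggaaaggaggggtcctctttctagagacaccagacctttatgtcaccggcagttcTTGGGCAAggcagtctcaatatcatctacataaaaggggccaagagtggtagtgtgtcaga

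Counted from the start, the Lcn2 window held the C/EBP-type letters at -216, the NF-kB-type letters at -102 and the PU.1-type letters at -20. The Csf3r window held NF-kB-type matches at -129 and, overlapping each other on both strands, at -1 and 1, and a PU.1-type match at -86. Ngp held 3 C/EBP-type matches, at -138, -102 and -11, and no other. Over the 6 windows, 3 members held the C/EBP-type motif, 4 the NF-kB-type, 4 the PU.1-type and 1, Mmp8, the TATA-type. The NF-kB-type letters also lay in the windows of Camp, which was not tested, and Cxcr2, which was not called with ischemia. The PU.1-type letters also lay in those of Mmp8, which was not tested, and Cxcr2. Neither motif was confined to the members that rose. Such short motifs are common: 40.7%, 50.8%, 28.3% and 13.6% of 32851 mouse promoter windows of this length hold them, in the same order. A match describes letters in a window and not binding.

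In counts, limma called 3 of the 4 tested genes higher with ischemia after anti-miR-210, where 26.5% of all genes tested were called higher, and the same 3 of 4 after scramble, where 27% were. Ischemic and non-ischemic arrays did not overlap for these 3, as for 23.3% of all genes after anti-miR-210 and 25% after scramble, in the higher direction. All 3 kept their calls under each alternative tried. Without background correction the changes were smaller, at 1.62 and 1.97 for Lcn2, 1.43 and 1.58 for Mmp9 and 0.94 and 1.88 for Csf3r, after anti-miR-210 and after scramble in turn (highest limma adjusted p = 0.00671). In bulk RNA, a change in the number of cells of a type and a change in RNA per cell cannot be told apart.

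**Figure D3:**
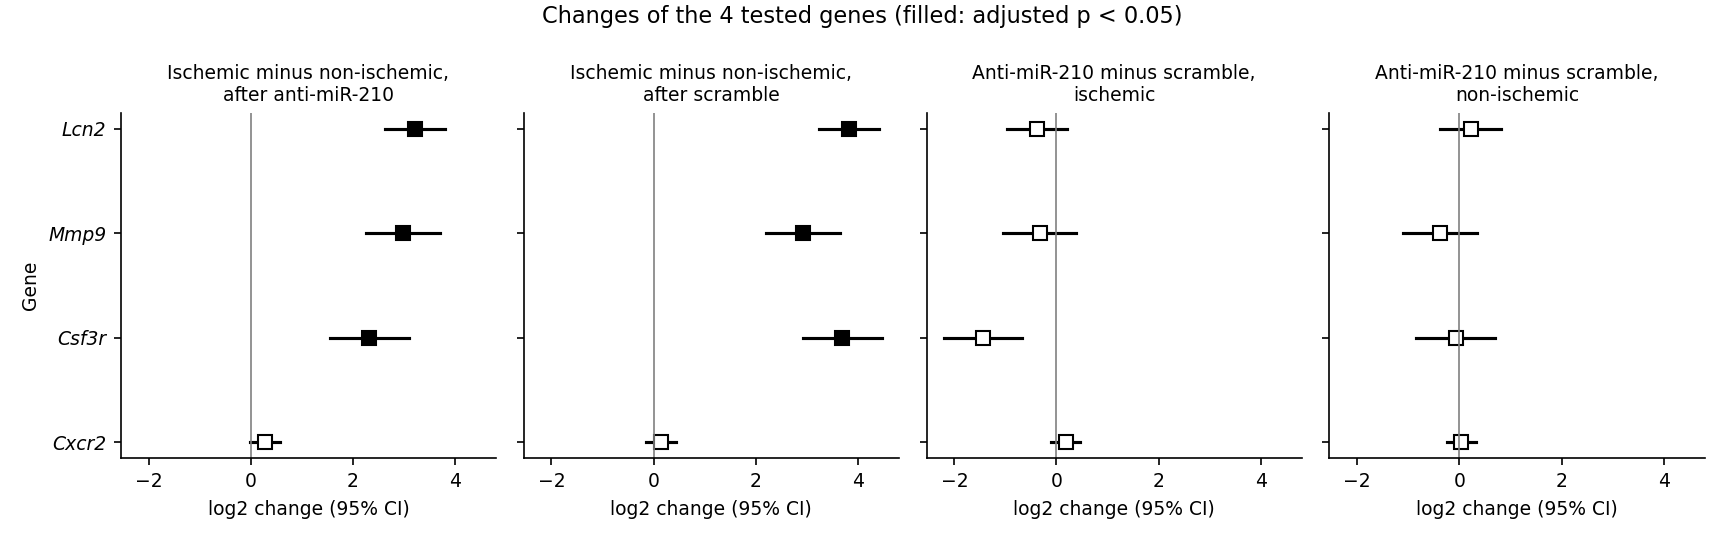
Change in log2 intensity (squares, filled where limma called the gene) with its 95% interval (lines) for Lcn2, Mmp9, Csf3r and Cxcr2 in 4 comparisons. The 3 called genes lie between 2.32 and 3.82 in both ischemia comparisons, and no gene is called between oligonucleotides.

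The comparison of anti-miR-210 with scramble asked whether inhibiting miR-210 altered these genes. In ischemic muscle limma called 0 of the 4 tested genes, where 1.09% of all genes were called in either direction. Csf3r had the widest gap, at 6.78 ± 0.87 after anti-miR-210 and 8.22 ± 0.84 after scramble (SD, n = 4 each; change -1.44 ± 0.37, 95% interval -2.21 to -0.67, limma adjusted p = 0.0664). At an unadjusted p under 0.05, which 15.9% of all genes passed, Csf3r alone of the 4 did. Its second probe stood at -0.87 ± 0.31 (limma adjusted p = 0.166). Lcn2 averaged 7.96 ± 0.76 and 8.34 ± 0.41 (-0.38 ± 0.28, interval -0.97 to 0.21), Mmp9 7.70 ± 0.58 and 8.03 ± 0.90 (-0.33 ± 0.34, interval -1.05 to 0.39) and Cxcr2 4.53 ± 0.32 and 4.35 ± 0.13 (0.18 ± 0.14, interval -0.11 to 0.47), after anti-miR-210 and after scramble in turn. The Csf3r difference passed the threshold without anti-miR-210 ischemic replicate 4 (-1.84, limma adjusted p = 0.00244), the array that reached into the scramble range, and without scramble ischemic replicate 2 (-1.73, limma adjusted p = 0.0235). With the replicate number as a block its limma adjusted p was 0.0498.

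Array brightness moved with this comparison. Mean deposited intensity was 229.5 ± 37.7 on anti-miR-210 ischemic arrays and 153.8 ± 28.6 on scramble ischemic arrays (SD, n = 4 each). The dimmest array, scramble replicate 4 (123.6), held the highest normalized Csf3r and Mmp9, and the brightest of the 8, anti-miR-210 replicates 2 (264.8) and 3 (259.2), held the lowest Csf3r. With brightness as a covariate the Csf3r difference was -0.3 (limma adjusted p = 0.97). The deposited Mmp9 intensity ran the other way from its normalized level: 286.8, 340.6, 312.9 and 430.2 on anti-miR-210 ischemic arrays against 266.8, 182.7, 168.3 and 288.9 on scramble ischemic arrays. Deposited Csf3r intensity was 184.1, 211.1, 165.3 and 324.8 on anti-miR-210 ischemic arrays and 250.2, 208.7, 204.1 and 310.8 on scramble ischemic arrays. The 2 groups overlapped widely on that scale, with the highest array in the anti-miR-210 group, although the normalized levels stood 1.44 apart. Under median scaling Mmp9 was called higher after anti-miR-210 (0.69, limma adjusted p = 0.0256), while the median of all genes shifted by 0.59, so that Mmp9 stood 0.1 above it. Lcn2 turned to 0.64 under the same scaling without a call (limma adjusted p = 0.0795), and Mmp9 to 0.47 with brightness as a covariate (limma adjusted p = 0.933). Csf3r stood 0.97 below that median under the same scaling (its own change was -0.38, limma adjusted p = 0.217). The part of brightness in these differences was not tested beyond these fits.

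**Figure D4:**
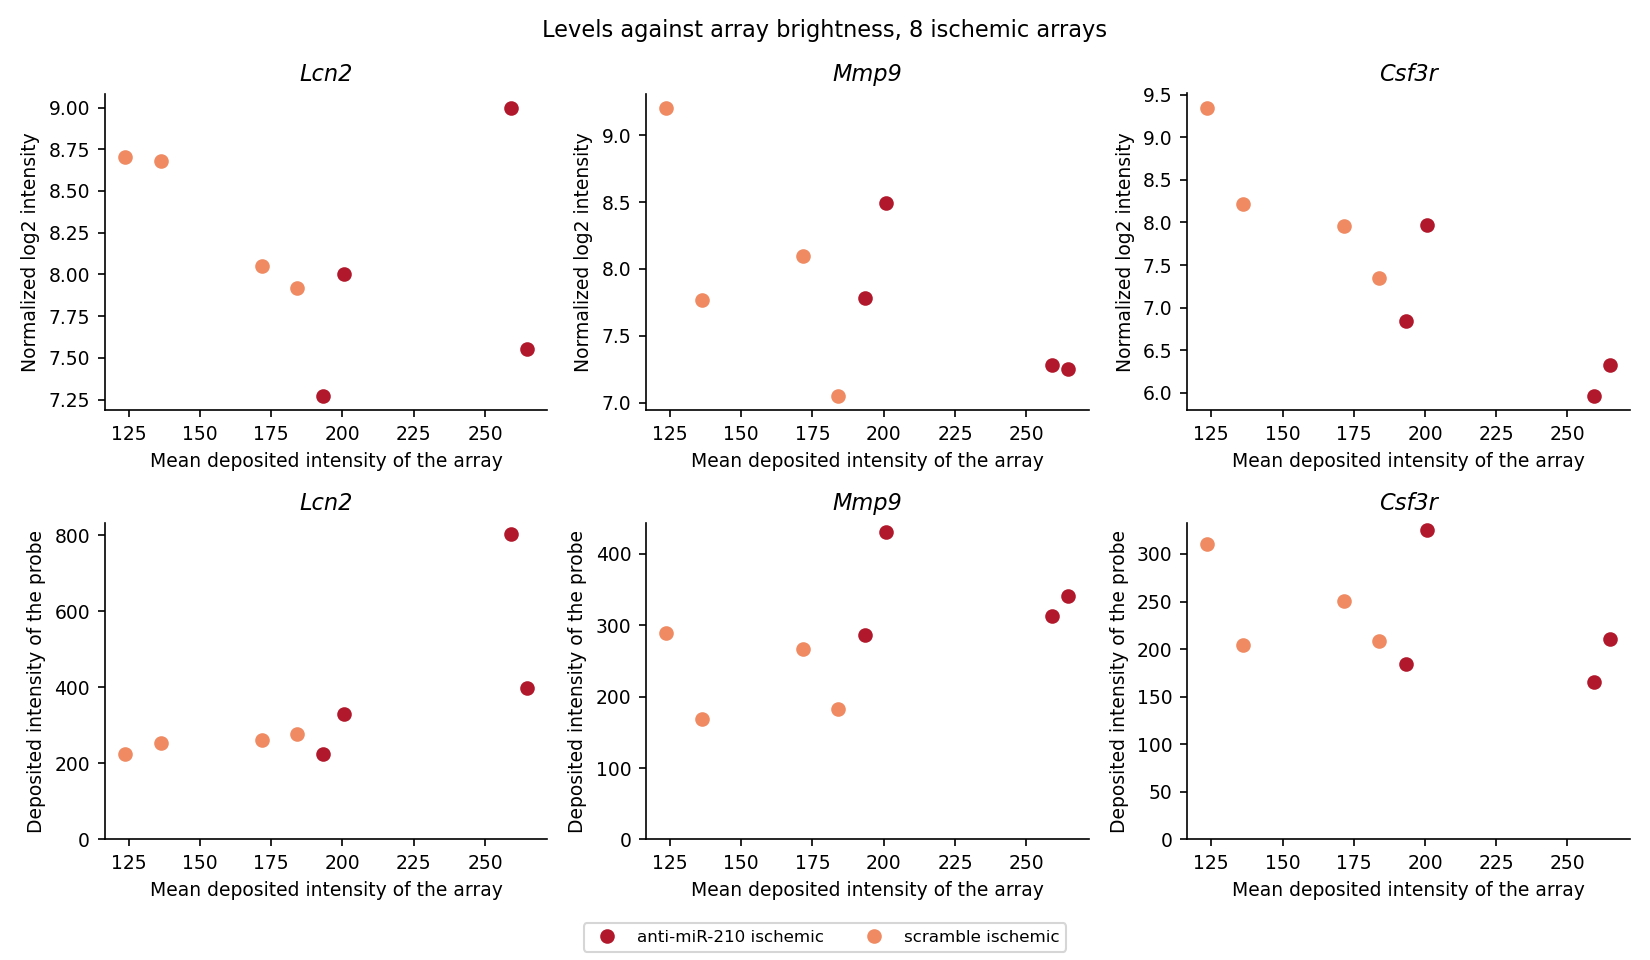
Normalized log2 intensity (upper row) and deposited probe intensity (lower row) of Lcn2, Mmp9 and Csf3r against the mean deposited intensity of each of the 8 ischemic arrays; axes of the upper row do not start at 0. Scramble ischemic arrays lie at 123.6 to 183.9 and anti-miR-210 ischemic arrays at 193.3 to 264.8, so brightness separates the groups.

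In non-ischemic muscle none of the 4 genes was called between oligonucleotides (0.0205% of all genes were, in either direction), and limma put the differences at 0.23 ± 0.28 for Lcn2, -0.38 ± 0.34 for Mmp9, -0.07 ± 0.37 for Csf3r and 0.04 ± 0.14 for Cxcr2. At an unadjusted p under 0.05, which 6.46% of all genes passed, the count was 0 as well. The ischemia response after anti-miR-210 minus that after scramble was -1.37 ± 0.52 for Csf3r (interval -2.46 to -0.28, limma adjusted p = 0.497), -0.61 ± 0.4 for Lcn2, 0.05 ± 0.49 for Mmp9 and 0.14 ± 0.19 for Cxcr2. Limma called 0 of the 4 there, where 0.0205% of all genes were called, and 1 (Csf3r) passed an unadjusted p under 0.05, which 8.2% of all genes did. The direction of the Csf3r value turned with brightness as a covariate (0.16), and under median scaling it was -0.31. The Lcn2 value turned under median scaling (0.52, while the median of all genes moved by 0.74), and the Mmp9 value was 1.06 there (limma adjusted p = 0.0303). Between scramble non-ischemic and untreated muscle, where 2.87% of all genes were called, the differences were -0.19 ± 0.31 for Lcn2, 0.27 ± 0.37 for Mmp9, 0.03 ± 0.4 for Csf3r and 0.03 ± 0.15 for Cxcr2, again with no call and none at an unadjusted p under 0.05, which 14.7% of all genes passed. The liver genes on the untreated arrays were lower in scramble non-ischemic muscle by a median of 5.16 in the same comparison, and their part in it was not tested. Without scramble non-ischemic replicate 1, the array with liver transcripts, those differences were -0.2, 0.24, 0.01 and 0.02 in the same order of genes, and the ischemia changes after scramble were 3.84 for Lcn2, 2.97 for Mmp9 and 3.72 for Csf3r.

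Genes with related roles were read beside the members, as counts. Many of them passed the filter through ischemic arrays alone, so their counts are descriptions. The counts cover tested genes only: a listed gene left out had no probe by its name or was detected on at most 2 arrays. Of all genes tested, limma called 26.5% higher with ischemia after anti-miR-210 and 27% after scramble. Of 6 azurophil granule genes 2 were tested. Prtn3, the serine protease proteinase 3, was at least 1.65-fold higher with ischemia after scramble (1.04 ± 0.14, limma adjusted p = 6e-06) and was not called after anti-miR-210 (0.31 ± 0.14, limma adjusted p = 0.0818). Mpo, which encodes myeloperoxidase, was not called after anti-miR-210 (0.13 ± 0.16) or scramble (0.05 ± 0.16). Like Ngp and Camp, Ctsg and Ms4a3 were detected on at most 2 arrays, and Elane and Prss57 had no probe by that name.

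Of the 8 other specific and gelatinase granule genes tested, limma called 5 higher with ischemia after anti-miR-210 and 7 after scramble, with 0 lower in either and medians of 1.31 and 1.62 (1.11 and 1.58 with undetected genes at their bound), against 0.01 for all genes in both. Adam8, a membrane metalloproteinase, rose at least 10.2-fold after anti-miR-210 (3.54 ± 0.26) and 12.1-fold after scramble (3.6 ± 0.26). Hp, which encodes the hemoglobin-binding protein haptoglobin, rose by 5.1 ± 0.77 and 6.11 ± 0.77 in the same order. Its level averaged 9.12 on the untreated arrays, where liver transcripts stood out, and 6.64 in scramble non-ischemic muscle (-2.48 ± 0.83, not called). Chil3, a chitinase-like protein also made by macrophages, rose by 3.55 ± 0.38 after anti-miR-210 and 3.1 ± 0.38 after scramble. Ltf, the lactoferrin gene and a specific granule companion of Lcn2, was called after scramble (0.63 ± 0.19, at least 1.28-fold) and not after anti-miR-210 (0.29 ± 0.19), and Olfm4 and Mmp25 were detected on 0 arrays. Ltf lies outside the naming rule and was chosen after its value was seen, as were Mpo, Csf3, Slc22a17, Itgb2, Csf2rb and Trem1.

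Of 8 neutrophil cytosolic genes 5 were tested. They gave 3 calls higher after anti-miR-210 and 5 after scramble (medians 1.3 and 2.3, or 1.3 and 2.08 with bounds). Stfa3 was detected on 0 arrays, and Stfa2l1 and Padi4 on at most 1. S100a8 and S100a9, whose products pair as the calcium-binding calprotectin, rose by 3.21 ± 0.77 and 2.33 ± 0.71 after anti-miR-210 and by 3.79 ± 0.77 and 3.13 ± 0.71 after scramble. Stfa1, a stefin, was called after scramble (1.22 ± 0.27, at least 1.85-fold) and not after anti-miR-210 (0.5 ± 0.27). With brightness as a covariate these counts became 5 and 3, in the same order, and the granule count after scramble fell to 4.

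Several other receptors of neutrophils rose beside Csf3r. The list held 14 genes, of which 10 were tested. Limma called 8 higher after anti-miR-210 and 7 after scramble, and 0 lower (medians 0.84 and 1.15, or 0.78 and 0.86 with bounds). The formyl peptide receptor gene Fpr2 rose by 3.82 ± 0.33 and 4.08 ± 0.33, the leukotriene receptor gene Ltb4r1 by 3.4 ± 0.37 and 3.84 ± 0.37, and the Fc receptor gene Fcgr3 by 4.73 ± 0.38 and 3.84 ± 0.38, after anti-miR-210 and after scramble in turn. After scramble Itgam (0.12 ± 0.14), Itgb2 (-0.07 ± 0.17) and Csf2rb (0.12 ± 0.14) were not called. After anti-miR-210 Csf2rb (0.31 ± 0.14) and Trem1 (0.58 ± 0.27) were not. Ly6g and Cxcr1 had no probe by that name, and Fpr1 and C5ar1 were each detected on at most 1 array. Among ligands, 3 of 4 tested were called higher in both comparisons (medians 1.51 and 2.49, or 1.33 and 2.39 with bounds). Cxcl1, a main mouse ligand of Cxcr2, rose by 3.45 ± 0.44 after anti-miR-210 and by 5.19 ± 0.44 after scramble, and Ppbp, a platelet chemokine precursor, by 1.9 ± 0.5 and 2.35 ± 0.5. Cxcl2 was at least 1.7-fold higher after anti-miR-210 (1.13 ± 0.36, limma adjusted p = 0.0124), a call lost under cyclic loess, without background correction and without anti-miR-210 ischemic replicate 4, and at least 5.4-fold higher after scramble (2.63 ± 0.36). Csf3, which encodes the Csf3r ligand G-CSF, was not called (-0.14 ± 0.15 and 0.09 ± 0.15).

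Of 7 tested transcription factors that act in granulocytes, limma called 5 higher in both comparisons (medians 1.21 and 0.84). The list also held Socs3, and with it the count was 6 of 8 in both. Socs3, the feedback inhibitor of G-CSF receptor signalling, rose by 3.25 ± 0.37 after anti-miR-210 and 3.6 ± 0.37 after scramble, Cebpd by 1.37 ± 0.12 and 1.32 ± 0.12, and Spi1, which encodes PU.1, by 1.74 ± 0.21 (at least 2.98-fold) and 0.84 ± 0.21. The Spi1 call after scramble was lost under median scaling (limma adjusted p = 0.0742). Timp1, a secreted inhibitor that binds Mmp9, rose by 5.61 ± 0.39 after anti-miR-210 and 5.09 ± 0.39 after scramble. Timp2 rose by 1.51 ± 0.27 and 1.04 ± 0.27, the call after scramble being lost under median scaling. Timp3 fell after anti-miR-210 (-0.79 ± 0.23, limma adjusted p = 0.0065), a call lost under median scaling and with brightness as a covariate, and was not called after scramble (-0.52 ± 0.23). The Lcn2 receptor gene Slc22a17 was among those not called. In all, 2 of these 4 genes were called higher in both comparisons, and 1 lower after anti-miR-210.

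Markers of macrophages, which also express Mmp9 and several of the receptors, rose with ischemia, as Lcn2, Mmp9 and Csf3r did. Of 10 tested, limma called 10 higher with ischemia after anti-miR-210 and 9 after scramble (medians 3.37 and 3.27), and the mean level of the list was 8.39 to 9.63 and 8.31 to 9.16 on the ischemic arrays, against 5.53 to 5.81 and 5.32 to 5.95 on the non-ischemic ones, in the same order. All 10 were detected on every ischemic array. Within each ischemic group the list mean was lowest on replicate 4 (8.39 after anti-miR-210 and 8.31 after scramble). After scramble the gap was small, with replicates 1 and 3 both at 8.36. Replicate 4 held the highest Mmp9 and Csf3r levels of each group. What sets this replicate apart was not tested. Cd68 rose by 5.4 ± 0.37 and 4.65 ± 0.37, Cd14 by 4.38 ± 0.24 and 3.87 ± 0.24 and Aif1 by 3.55 ± 0.18 and 3.51 ± 0.18. Of 9 muscle markers limma called 3 lower and 1 higher after anti-miR-210 (24.4% of all genes were called lower), and 4 lower and 1 higher after scramble (24.6%): the fast myosin gene Myh4 fell by 1.92 ± 0.26 and 1.33 ± 0.26 on the log2 scale and the troponin gene Tnnt3 by 0.97 ± 0.16 and 0.57 ± 0.16. Ckm, the muscle creatine kinase gene, fell by 0.92 ± 0.17 after scramble and was not called after anti-miR-210 (-0.2 ± 0.17). The scramble calls of Ckm and Tnnt3 were lost under cyclic loess, and that of Tnnt3 also with brightness as a covariate. Of 4 erythroid markers and 8 liver markers, limma called 0 in either comparison. How far macrophages or muscle loss enter the changes of Lcn2, Mmp9 and Csf3r was not tested.

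**Figure D5:**
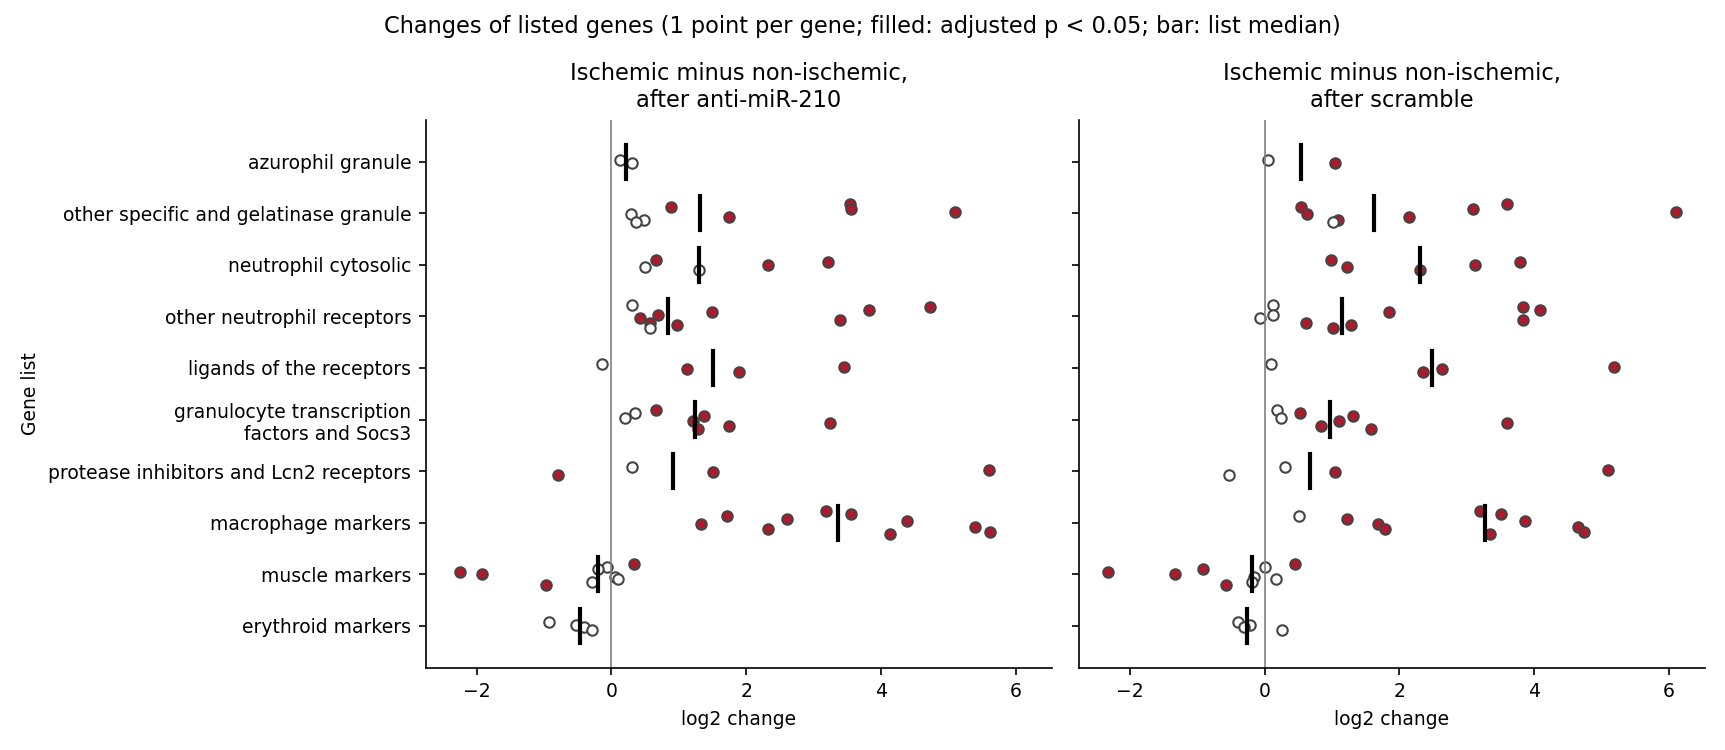
Change in log2 intensity with ischemia after anti-miR-210 (left) and after scramble (right) for each tested gene of 10 lists (points, filled where limma called the gene; bars mark list medians). Macrophage markers have the highest medians (3.37 and 3.27), and erythroid markers hold no called gene.

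Between oligonucleotides in ischemic muscle, limma called 4 of these related genes and markers, where 1.09% of all genes were called in either direction. They were 1 of 2 azurophil granule genes, 1 of 10 other receptors, 1 of 4 ligands and 1 of 10 macrophage markers tested. The count was 0 of 8 for other granule genes, 0 of 5 for cytosolic genes and 0 of 8 for transcription factors with Socs3. It was 0 of 4 for protease inhibitors and Lcn2 receptors, 0 of 9 for muscle, 0 of 8 for liver and 0 of 4 for erythroid markers. Cxcl2 was lower after anti-miR-210 (5.35 against 7.00 after scramble, change -1.65 ± 0.36, limma adjusted p = 0.0375), as was Prtn3 (4.68 against 5.29, -0.61 ± 0.14, limma adjusted p = 0.0461). Itgam, the integrin subunit CD11b of neutrophils and macrophages, was at least 1.39-fold higher after anti-miR-210 (5.03 against 4.41, 0.62 ± 0.14, limma adjusted p = 0.0411). C1qa, a complement gene of macrophages, was higher too (6.79 against 5.57, 1.22 ± 0.29, limma adjusted p = 0.0468). All 4 calls lay near the threshold. Of 20 alternatives, the call was lost in 15 for Prtn3, 11 for Itgam, 10 for Cxcl2 and 13 for C1qa, and the direction held in each. Brightness as a covariate removed all 4 calls (limma then called 1 of all genes), as did fitting only the groups compared. With ischemia, Itgam was called higher after anti-miR-210 (0.7 ± 0.14) and not after scramble (0.12 ± 0.14).

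Across the 8 ischemic arrays the members did not vary as 1 block. Csf3r and Mmp9 varied together (Pearson r = 0.83, Spearman rho = 0.67), while Lcn2 followed Csf3r (0.28 and 0.29) and Mmp9 (0.23 and 0.29) weakly. Cxcr2 correlated at -0.41 with Csf3r, -0.21 with Mmp9 and 0.11 with Lcn2 in Pearson r. These arrays come from both oligonucleotide groups and differ in brightness, so the values are descriptions. By the highest Pearson r over the same arrays, the genes most like Lcn2 were Ddr1 (0.935), Uqcc2 (0.928) and Rasd2 (0.918), those most like Csf3r were Espn (0.99), Uqcrb (0.985) and Ckmt1 (0.982), those most like Mmp9 were 2310057J18Rik (0.975) and Cdc42bpb (0.969), and those most like Cxcr2 were BC055107 (0.968), Morc3 (0.945) and Gnb1l (0.945). None of these is a gene of the neutrophil lists, but the top genes alone cannot show how those lists vary with the members. The neutrophil cytosolic mean, like Mmp9 and Csf3r, was highest on replicate 4 of each ischemic group (8.03 after anti-miR-210 and 8.84 after scramble). So were the means of the ligands (6.62 and 7.7) and of the protease inhibitors and Lcn2 receptors (9.6 and 9.48), in the same order. The pattern is therefore not particular to neutrophil genes.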

How the data were processed

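Per the labels' protocols, RNA was isolated in Trizol, purified with RNeasy and amplified into biotin-labelled cRNA by Ambion MessageAmp. Per the file headers, the deposited table holds, for every probe and array, a mean bead intensity together with its detection p-value. The intensity values carry no normalization or background subtraction by the authors, as their distributions show, and no source used here names the exporting software. A second deposited table of intensity on a linear scale holds the authors' processed values. Its columns share nearly the same distribution, its background was not subtracted, and it served as an alternative.

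Intensities were background-corrected and quantile-normalized with neqc in limma 3.58.1 (R 4.3.3; offset 16). The filter kept 21083 probes whose detection p was under 0.05 on 3 or more of 19 arrays, and the probe with the highest mean stood for each gene (14654). Probe names were updated through a RefSeq gene table (GRCm38.p6, names and gene positions). Means of the 5 groups were fitted to all arrays with limma, with empirical Bayes moderation and Benjamini-Hochberg adjustment over all genes per comparison. The steps were tested on simulated data. Where no array of a group detected a probe, it was given a bound at the detection floor (log2 4.4 to 4.65 over arrays). Identical arrays numbered 0, and the closest pair correlated at 0.992. No batch is labelled.

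Named genes are the 7 members, up to 3 genes of each related list with the smallest adjusted p in an ischemia comparison, listed genes called in another comparison (liver genes only as a group), and for each tested member the 3 genes most like it, of which 1 is not reported here. The members and lists were chosen with earlier results of these data known. Alternatives changed the background correction, normalization, input values, filter, probe choice, samples, brightness covariate, variance model and replicate block, and left out single arrays. Figures used matplotlib 3.10.9 under Python 3.11.15.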

Additional observations from a re-analysis of the deposited data

Results flagged for a closer look

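Of 48 sets of 4 arrays (each of the 12 probes in each group of 4), 2 held an array set apart from the other 3 by more of the range than Dixon's 95% critical value for 4 allows, and chance alone sets apart about 1 in 20. A dim Csf3r probe read 4.62 on scramble ischemic replicate 1, where it was detected (deposited intensity 85.3), against 4.14 to 4.22 on the other 3. The Mmp8 probe read 4.65 on scramble ischemic replicate 4, the dimmest array, without being detected (deposited intensity 76.0), against 4.21 to 4.27 on the other 3.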

How the results depend on the processing

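Of 502 values of single members under the alternatives, 496 kept their side of the threshold, 5 newly passed it, 0 lost it and 1 passed it in the opposite direction. Of the 496, 26 changed sign, all without a call, 12 of them in the difference of the ischemia responses, where Csf3r ran from -1.77 to 0.16. The opposite call was Mmp9 between oligonucleotides in ischemic muscle under median scaling, at 0.69 (limma adjusted p = 0.0256), where the median of all genes moved by 0.59 and limma called 7001 genes in place of 159. The count of called members in that comparison was 0 and became 1 under median scaling (Mmp9), 1 with the replicate block (Csf3r, -1.44, limma adjusted p = 0.0498) and 0 to 1 with single arrays left out. Over its alternatives the Csf3r difference ranged from -1.84 to -0.3 and its adjusted p from 0.00244 to 0.97. For the difference of the ischemia responses the count was 0 and became 1 under median scaling (Mmp9, 1.06, limma adjusted p = 0.0303; median of all genes 0.74, 4730 genes called in place of 3), and 0 to 0 with arrays left out. The cause was not tested in either case. In the ischemia comparisons 3 members were called under each alternative, except 4 without anti-miR-210 ischemic replicate 1 (range 3 to 4 after anti-miR-210 and 3 to 3 after scramble). Between oligonucleotides in non-ischemic muscle and between scramble non-ischemic and untreated muscle the count was 0 under each. Of 440 counts for the related lists, 19 moved by over 1.5 times or went to or from 0. Deviations of same-numbered arrays correlated at 0.09 to 0.24 between ischemic and non-ischemic muscle after anti-miR-210 and 0.05 to 0.17 after scramble, with each array closest to its own number in 4 of 4 pairs of both. Between oligonucleotides they correlated at -0.29 to 0.3 in ischemic and -0.02 to 0.07 in non-ischemic muscle, closest to the own number in 1 of 4 and 0 of 4 pairs. Not every pair passed 0.1, so the numbers were not taken to pair arrays. Pairing of limbs remains possible, as each array was closest to its own number in both ischemia comparisons. The fits ignore any such pairing, and so do their standard errors and p-values. The block changed no other call of a member. It joined equal numbers over all groups, so it cannot show what pairing ischemic with non-ischemic arrays would change. Probes near the background limit what can be said of Camp, Ngp, Mmp8 and Cxcr2.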
